A study of Mus musculus with 4 samples.

Results

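The nuclear genes of oxidative phosphorylation were described in regulatory T cells (Treg cells, Foxp3-expressing CD4 T cells that restrain immune responses) sorted from mouse spleen. They were chosen by symbol, as all protein-coding entries of the deposited count table whose name begins with Nduf, Uqcr or Atp5, begins with Cox followed by a digit from 4 to 8, or is Sdha, Sdhb, Sdhc or Sdhd. The rule found 96 genes among 20837. RNA was sequenced from 2 libraries of Foxp3YFP-CreKmt2d+/+ mice (WT) and 2 of Foxp3YFP-CreKmt2dfl/fl mice (cKO), so that both groups carry the Foxp3-driven YFP-Cre and differ in whether it can delete Kmt2d, the gene of a histone H3K4 methyltransferase. The comparison asks how the Treg transcriptome differs when Kmt2d is deleted in cells that express Foxp3. By design deletion is limited to those cells, which was not checked here, and age, sex and pooling of the mice are not given. The extraction protocol in the labels describes cultured macrophages of another knockout, against the tissue, cell and genotype entries, which are followed here. Nothing in the labels ties the libraries to individual mice. The p-values therefore reflect only how far libraries of a group differ, and that spread may be technical.

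Oxidative phosphorylation takes place in the inner mitochondrial membrane. Complexes I and II take electrons from NADH and succinate, complex III passes them to cytochrome c, complex IV hands them to oxygen, and complex V, the ATP synthase, uses the resulting proton gradient to make ATP. A few subunits are encoded in mitochondrial DNA and all others in the nucleus, so the complexes depend on transcripts from both genomes. Treg cells are known for relying on mitochondrial respiration more than conventional effector T cells do.

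Total counts ran from 28442416 to 35560491 per library. Levels are given as CPM (read counts relative to library sizes scaled by TMM factors), 1 read being worth 0.0288 to 0.0344 CPM and a count of 0 allowing up to 0.0864 to 0.103 CPM (3 counts, counting error only). Of the defining Treg genes, Foxp3 measured 278 and 250 CPM in WT and 170 and 180 CPM in cKO, and the T cell gene Cd3e 367 to 404 CPM in all libraries. Cd3e does not stand for its list, since of 16 pan T cell genes 11 were lower in cKO by the test described below. Of that list 0 were higher and 5, with Cd3e, did not pass. Kmt2d itself, counted over the whole gene, measured 721 and 704 CPM in WT and 836 and 793 CPM in cKO. Reads from exons that the deletion leaves in place enter such a count, so it does not check the labels. By the test described below Kmt2d was higher in cKO (log2 fold change 0.19, standard error 0.05, edgeR quasi-likelihood adjusted p = 0.0375). The cause of that rise was not tested. WT 1 and cKO 2 stood apart from the other libraries in erythroid and platelet transcripts, whose 11 genes summed to 672 and 522 CPM there against 242 in WT 2 and 185 in cKO 1.

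Transcripts of the respiratory chain were, on the whole, slightly higher in the cKO libraries, and no member passed the test as lower. Summed over the 96 genes, they took 6215 and 6437 CPM in WT and 6758 and 6885 CPM in cKO, so the groups did not overlap and the cKO mean was 1.08 times the WT mean. Over all 20837 genes the same ratio was 0.97, a value set by the TMM factors of the libraries and not by how a typical gene differed. The median log2 fold change of all genes tested was 0.0003. After the filter on low counts, 92 genes were tested by edgeR's quasi-likelihood F-test (adjusted p under 0.05 over all 13861 genes tested, log2 fold changes as cKO over WT with their standard error, SE). Of these, 15 rose, 0 fell and 77 did not pass, while 26 had an unadjusted p under 0.05, all of them higher. Among all genes tested 31.6% were called, 16.5% higher and 15.1% lower, so the share of members that rose (16.3%) was close to that of genes in general. DESeq2 called 4 as higher and 0 as lower, against 9.05% higher and 11.0% lower among all genes it tested.

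The median log2 fold change of the members was 0.09, with the middle part of the distribution (first to last quartile) from 0.03 to 0.15. For all genes tested the median was 0.0003 and the quartiles were -0.17 and 0.21. In 72 of the 92 members the log2 fold change was above 0, against 6936 of 13861 genes. Both cKO libraries lay above both WT libraries for 55 members and below them for 6, while the shares among all genes tested were 35.1% and 30.9%. A gene called on these libraries is likely to show such separation, so for called genes it adds no support of its own. The differences were small, since 86 of the 92 members (93.5%) changed by less than 0.3 on the log2 scale, against 63.3% of all genes tested. At a mean of 2 CPM or more, 83 of 86 members and 70.9% of all genes did so. With RLE and upper-quartile scaling the members' median was 0.07 and 0.11, and that of all genes -0.02 and 0.03. Scaling shifts all genes by about the same amount, so the gap between these medians does not depend on it by construction.

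The count of 15 depended on each of the 4 libraries. In fits that left out any 1 of them fewer members were called, and fewer of all genes tested were called as well. The members' median log2 fold change in these fits ran from 0.08 to 0.13. Genes of other cells and of the cell cycle also differed between the groups. Neutrophil markers summed to 70.0 and 202 CPM in WT and 651 and 1433 CPM in cKO, all 13 rising, Ly6g having 2 and 1 counts in WT and 38 and 138 in cKO. Basophil markers (6 of 7 rising) summed to 3.14 and 4.86 CPM in WT and 20.7 and 35.3 CPM in cKO, and CD8 and NK cell markers (8 of 9 rising) to 165 and 196 CPM against 285 and 298 CPM. Pan T cell genes (11 of 16 falling, 0 rising) summed to 9028 and 8614 CPM in WT and 6818 and 7355 CPM in cKO. Proliferation genes (21 of 22 rising) summed to 1471 and 1643 CPM in WT and 2381 and 2251 CPM in cKO. Of the other marker lists, 3 of 10 B cell, 1 of 13 macrophage and monocyte, 3 of 6 plasmacytoid dendritic cell and 1 of 8 tested erythroid and platelet genes rose, and 1 plasmacytoid dendritic cell gene fell. Of 7 Treg identity genes 1 rose and 3 fell. Their part in the differences of the respiratory chain genes was not tested. In bulk RNA of sorted cells, a change in the number of cells of a type and a change in RNA per cell cannot be told apart.

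**Figure D1:**
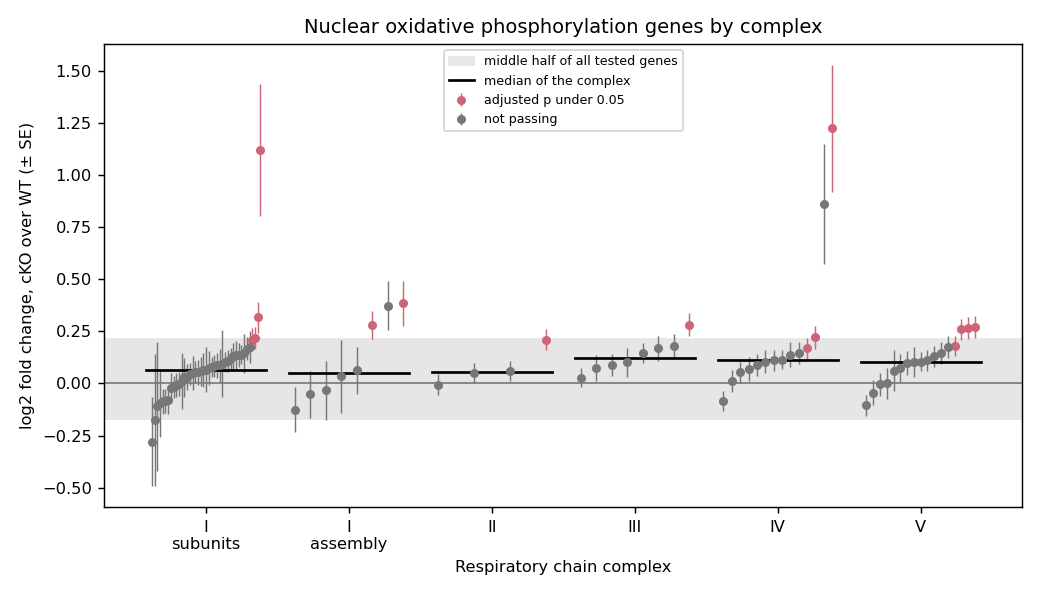
Log2 fold change (cKO over WT, ± SE) of each of the 92 tested genes, grouped by complex, with red points for the 15 that passed the test, black bars for each complex's median and a grey band for the first to last quartile of all tested genes. Most points lie inside the band and above 0. The 2 largest values that passed, Ndufb4c and Cox6b2, and that of Cox6a2 (0.86), which did not pass, belong to genes with about 1 CPM or less.

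Complex V, which turns the proton gradient into ATP, showed the largest difference in summed CPM among the complexes. Its 17 genes summed to 2538 and 2630 CPM in WT and 2825 and 2898 CPM in cKO, 1.11 times higher in cKO. Of the 17, 4 rose, 0 fell and 13 did not pass, with a median log2 fold change of 0.10. The 4 that rose belong to the catalytic F1 head and to the peripheral stalk that holds it in place.

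Atp5b, the catalytic beta subunit (gene number 11947, mm10 chromosome 10, 128083307 to 128090388), measured 604 and 628 CPM in WT and 729 and 745 CPM in cKO. The groups did not overlap, and the log2 fold change was 0.26 (SE 0.05, edgeR quasi-likelihood adjusted p = 0.0129). Atp5c1, the gamma subunit that turns inside the head (chromosome 2, 10056030 to 10080510), had 165 and 176 CPM in WT and 203 and 208 CPM in cKO, a log2 fold change of 0.27 (SE 0.05, edgeR adjusted p = 0.0144). Atp5o, which links the head to the stalk (chromosome 16, 91925223 to 91931630), had 80.1 and 84.7 CPM in WT and 98.3 and 99.7 CPM in cKO, a log2 fold change of 0.26 (SE 0.05, edgeR adjusted p = 0.0153). Stalk subunit b, Atp5pb, had 148 and 154 CPM in WT and 171 and 170 CPM in cKO, a log2 fold change of 0.18 (SE 0.05, edgeR adjusted p = 0.0391). GENCODE M21 has transcripts of Wdr77 that overlap it on the opposite strand, while the RefSeq spans of the genes are apart (Wdr77 had a log2 fold change of 0.21, edgeR adjusted p = 0.0339), and the use of strand in the counting is not given in the sources used here. In all 4 the cKO libraries lay above the WT libraries, which adds no support beyond the call. Without WT 2, Atp5b, Atp5c1 and Atp5o kept their calls (edgeR adjusted p 0.0360, 0.0293 and 0.0320), and without any other library they lost them (0.0585 to 0.0791). Atp5pb had 0.0799 to 0.187 in the same 4 fits, 0.0502 with RLE scaling and 0.0508 without the filter on low counts.

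The rest of the synthase moved less evenly. Atp5a1, the alpha subunit that alternates with beta in the head, measured 614 and 630 CPM in WT and 663 and 674 CPM in cKO, a log2 fold change of 0.10 (SE 0.05) that did not pass. The delta subunit Atp5d had 144 and 142 CPM in WT and 129 and 136 CPM in cKO, a log2 fold change of -0.11 (SE 0.05) that did not pass. Both were looked at after their values were seen. Atp5d was the complex V gene with both cKO libraries below both WT libraries. It overlaps Cbarp on the opposite strand, which fell by 0.96 on the log2 scale (edgeR adjusted p = 0.00549). The 3 genes of subunit c, which forms the rotor ring, encode the same mature protein from separate loci, and none passed. Atp5g3 had a log2 fold change of 0.15 (SE 0.05), Atp5g2 of 0.10 (SE 0.07) and Atp5g1 of 0.07 (SE 0.07). The 5 small membrane subunits had a median of 0.06, and none passed. Among them Atp5mpl came nearest, with 42.4 and 43.97 CPM in WT and 48.4 and 49.0 CPM in cKO (log2 fold change 0.17, SE 0.05, edgeR adjusted p = 0.0520). Atp5h, of the peripheral stalk, overlapped between the groups, with 97.6 and 112 CPM in WT and 107 and 102 CPM in cKO.

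The promoters of Atp5b and Atp5c1 held the letters CCAAT, the core bound by NF-Y. Those of Atp5o and Atp5pb did not, and 9 of the 15 promoters found for complex V genes did. Among the members that rose, 4 of 14 with a promoter (28.6%) held them, against 42.9% of tested genes. The 200 bases from 250 to 51 before the start of Atp5b (GRCm38.p6, chr10:128083057-128083256, plus strand, RefSeq) are shown because they hold 5 matches to these letters on either strand (ATTGG on the other strand), in capitals.

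Atp5b: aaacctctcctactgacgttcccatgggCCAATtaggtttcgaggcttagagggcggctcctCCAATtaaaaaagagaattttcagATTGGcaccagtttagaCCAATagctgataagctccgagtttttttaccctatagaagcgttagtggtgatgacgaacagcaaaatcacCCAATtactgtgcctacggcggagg

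Complex I, the NADH dehydrogenase through which most electrons enter, had more members than the other complexes. Its 41 genes summed to 1464 and 1516 CPM in WT and 1559 and 1590 CPM in cKO, 1.06 times higher in cKO. Of the 41, 4 rose (9.76%, against 23.5% in complex V, a difference that was not tested), 0 fell and 37 did not pass, with a median log2 fold change of 0.07. The 7 nuclear core subunits, which carry the flavin and the iron-sulphur clusters, all had a log2 fold change above 0 (median 0.14), and 2 of them rose. The 12 accessory subunits of the matrix arm had a median of 0.02, with 7 above and 5 below 0 and none passing. The 22 of the membrane arm had a median of 0.06, and 2 rose (Ndufb1 and the copy Ndufb4c, the latter on few reads). The difference between these groups of subunits was not tested.

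Among the core subunits, Ndufv2 had 53.3 and 56.0 CPM in WT and 64.1 and 62.9 CPM in cKO, a log2 fold change of 0.22 (SE 0.05, edgeR adjusted p = 0.0268). Ndufs8 had 37.2 and 38.9 CPM in WT and 44.1 and 43.8 CPM in cKO, a log2 fold change of 0.21 (SE 0.05, edgeR adjusted p = 0.0344). Both carry iron-sulphur clusters, and in both the groups did not overlap. Ndufb1, a small subunit of the membrane arm, had 19.6 and 21.4 CPM in WT and 25.6 and 25.5 CPM in cKO, a log2 fold change of 0.32 (SE 0.07, edgeR adjusted p = 0.0254). Ndufb1 kept its call without WT 2 (edgeR adjusted p = 0.0438) and lost it without any other library (0.0946 to 0.123), while Ndufv2 and Ndufs8 lost theirs in all 4 fits (0.0559 to 0.166).

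Other core subunits had smaller differences that did not pass. Ndufs1, which holds several iron-sulphur clusters, had 75.4 and 76.1 CPM in WT and 81.6 and 81.1 CPM in cKO, and Ndufs3 had 44.5 and 45.1 CPM in WT and 47.3 and 51.1 CPM in cKO. The groups did not overlap in either gene. Ndufv1, the flavin-binding partner of Ndufv2, had 62.1 and 62.0 CPM in WT and 62.6 and 65.6 CPM in cKO, so the 2 partners differed in the size of their log2 fold change (0.05 against 0.22), a difference that was not tested. Ndufs7 overlapped between the groups.

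Among the accessory subunits and their copies, 4 lay lower in both cKO libraries and none passed. Ndufa1, Ndufa3 and Ndufa7 had log2 fold changes of -0.08, -0.09 and -0.09. The copy Ndufab1-ps, with only 35 to 50 counts per library, had -0.28 (SE 0.21). Ndufa10, of the membrane arm, had 67.2 and 69.6 CPM in WT and 74.6 and 79.0 CPM in cKO (log2 fold change 0.17, SE 0.06, edgeR adjusted p = 0.0678) and passed with upper-quartile scaling. Ndufa12 was uneven between libraries, with 19.7 and 18.5 CPM in WT and 16.9 and 23.8 CPM in cKO, so that the 2 cKO libraries lay on either side of WT.

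Ndufb4c rests on few reads. It had 12 counts in either WT library and 26 and 25 in cKO, giving a log2 fold change of 1.12 (SE 0.32, edgeR adjusted p = 0.0440, and 0.143 to 0.248 without single libraries). It is a copy of Ndufb4, which had 20.1 and 18.9 CPM in WT and 22.6 and 21.4 CPM in cKO without passing. Reads may have been shared out among such copies when they were counted, so this value and those of Ndufb4b, Ndufab1-ps and Ndufs6b, each under 2 CPM in every library, are uncertain.

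The 8 Ndufaf genes encode assembly factors, which help to build complex I and are not part of the finished enzyme. Of these, 2 rose, 0 fell and 6 did not pass, with a median log2 fold change of 0.05 that turned to -0.02 without WT 1 and was 0.18 without WT 2. Ndufaf4 had 24.8 and 26.6 CPM in WT and 31.5 and 30.9 CPM in cKO, a log2 fold change of 0.28 (SE 0.07, edgeR adjusted p = 0.0268). Ndufaf5, which modifies a core subunit during assembly, had 7.87 and 8.83 CPM in WT and 10.8 and 11.0 CPM in cKO, a log2 fold change of 0.38 (SE 0.11, edgeR adjusted p = 0.0414). Ndufaf2 had 5.59 and 5.55 CPM in WT and 7.36 and 7.07 CPM in cKO and just missed the threshold (log2 fold change 0.37, SE 0.12, edgeR adjusted p = 0.0597). In these 3 genes the groups did not overlap. The calls of Ndufaf4 and Ndufaf5 ended without any of the 4 libraries (edgeR adjusted p 0.0548 to 0.180).

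The promoters of Ndufaf4 and Ndufaf5 were those among the rising genes that held the letters GCGCATG, a core of the site of NRF1, a regulator of respiratory genes. The stretch of Ndufaf4 from position -150 to -51 relative to its start (GRCm38.p6, chr4:24897933-24898032, plus strand, RefSeq) is shown with its 2 overlapping matches, 1 on either strand, in capitals.

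Ndufaf4: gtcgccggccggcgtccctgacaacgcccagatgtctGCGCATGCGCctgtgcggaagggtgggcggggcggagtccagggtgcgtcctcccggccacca

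**Figure D2:**
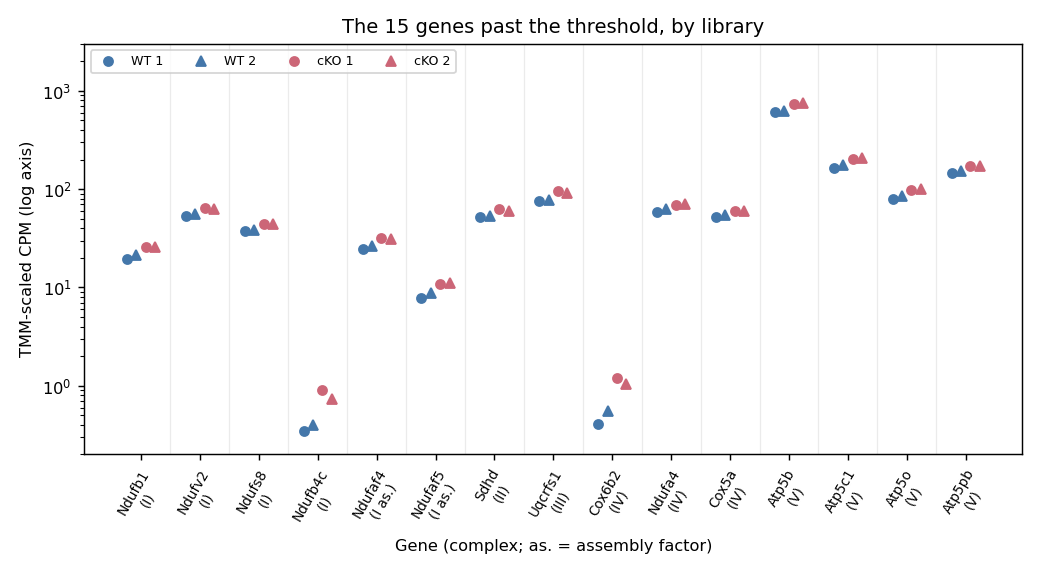
TMM-scaled CPM (log axis) in each library for the 15 genes that rose, ordered by complex, with blue for WT and red for cKO and circles and triangles for replicates 1 and 2. In each gene both red points lie above both blue points, which selection by the test makes likely. Ndufb4c and Cox6b2 lie far below the other 13.

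Complex II, succinate dehydrogenase, also belongs to the citric acid cycle and is encoded wholly in the nucleus. Its 4 genes summed to 423 and 440 CPM in WT and 454 and 449 CPM in cKO. Sdhd, a membrane anchor (chromosome 9, 50596340 to 50603849), had 52.6 and 53.8 CPM in WT and 62.8 and 60.3 CPM in cKO. Its log2 fold change was 0.21 (SE 0.05, edgeR adjusted p = 0.0279, and 0.0799 to 0.177 without single libraries). The other 3 did not pass. The flavoprotein gene Sdha had 241 and 254 CPM in WT and 259 and 256 CPM in cKO (log2 fold change 0.06, SE 0.05), Sdhc a log2 fold change of 0.05 (SE 0.05) and Sdhb of -0.01 (SE 0.05). The bases from 60 to 21 before the start of Sdhd (GRCm38.p6, chr9:50603870-50603909, minus strand, RefSeq) are shown because they hold a match to the letters CCGGAAG, a core of sites of ETS factors such as GABP, in capitals and read on the other strand.

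Sdhd: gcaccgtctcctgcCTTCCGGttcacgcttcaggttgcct

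Complex III, the cytochrome bc1 complex, had all 8 genes with a log2 fold change above 0 and a median of 0.12. They summed to 603 and 618 CPM in WT and 664 and 667 CPM in cKO. Uqcrfs1, the Rieske iron-sulphur protein (gene number 66694, chromosome 13, 30540312 to 30545316), had 75.4 and 78.0 CPM in WT and 95.6 and 90.8 CPM in cKO. Its log2 fold change was 0.28 (SE 0.05, edgeR adjusted p = 0.0134), the 1 call in this complex. That call was kept without WT 2 (edgeR adjusted p = 0.0401) and without cKO 2 (0.0359) and lost without WT 1 (0.0711) and without cKO 1 (0.0860). The core protein gene Uqcrc2 had 135 and 140 CPM in WT and 153 and 152 CPM in cKO (log2 fold change 0.15, SE 0.05, edgeR adjusted p = 0.0643). Uqcr10 had 34.0 and 35.7 CPM in WT and 39.4 and 39.6 CPM in cKO (log2 fold change 0.18, SE 0.06, edgeR adjusted p = 0.0601). Both missed the threshold with TMM scaling and passed it with upper-quartile scaling (edgeR adjusted p = 0.0454 and 0.0474). Uqcrc1, the partner of Uqcrc2 in the core, was nearly level between the groups (log2 fold change 0.03, SE 0.05). Cyc1, the cytochrome subunit of the same complex, which the symbol rule does not take, had a log2 fold change of 0.12 (SE 0.05) and did not pass.

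Complex IV, cytochrome c oxidase, divided into common subunits and isoforms of restricted tissues. The 18 genes, with Ndufa4 and its paralogue Ndufa4l2 counted here because NDUFA4 protein is found in this complex, summed to 1107 and 1145 CPM in WT and 1161 and 1190 CPM in cKO. Among the 14 tested, 3 rose, 0 fell and 11 missed the threshold, with a median log2 fold change of 0.11. All 11 common subunits had a log2 fold change above 0 with all libraries and TMM scaling, while Cox6b1 was at -0.01 with RLE scaling and with DESeq2 and at -0.03 without cKO 2. Ndufa4 had 58.1 and 62.1 CPM in WT and 69.7 and 70.5 CPM in cKO, a log2 fold change of 0.22 (SE 0.06, edgeR adjusted p = 0.0292). Cox5a, a subunit facing the matrix, had 52.5 and 54.4 CPM in WT and 60.4 and 59.8 CPM in cKO, a log2 fold change of 0.17 (SE 0.05, edgeR adjusted p = 0.0491). The groups did not overlap in either gene. Cox5a did not pass with RLE scaling (edgeR adjusted p = 0.0613), with limma-voom (0.0562), without the filter on low counts (0.0938) or without single libraries (0.102 to 0.225), and Ndufa4 passed without WT 2 (0.0443) and not without any other library (0.115 to 0.147).

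Isoforms of other tissues were at or near the detection limit. Cox6b2, known from testis, had 14 and 17 counts in WT and 35 and 36 in cKO, or 0.403 and 0.558 CPM against 1.20 and 1.04 CPM. Its log2 fold change was 1.22 (SE 0.30, edgeR adjusted p = 0.0292, and 0.0715 to 0.164 without single libraries). Cox6a2, known from heart and skeletal muscle, had 17 and 20 counts in WT and 31 and 35 in cKO and did not pass (log2 fold change 0.86, SE 0.29). Their common counterparts were about as high in both groups, Cox6b1 with 84.0 and 85.1 CPM in WT and 83.0 and 87.4 CPM in cKO, and Cox6a1 with a log2 fold change of 0.05 (SE 0.05). Per kb of transcript, Cox6b1 measured 137 and Cox6b2 0.869 CPM in WT. The 4 members that did not pass the filter on low counts were all such isoforms. Cox7a1 had 1 and 5 counts in WT and 9 and 5 in cKO. Cox8b had 0 and 3 in WT and 0 and 1 in cKO. Cox4i2 and Ndufa4l2 had 1 count each, in cKO 1.

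Cox7a2l, which joins complexes III and IV into supercomplexes, went the other way from most of complex IV. It had 260 and 272 CPM in WT and 251.1 and 251.2 CPM in cKO, a log2 fold change of -0.08 (SE 0.05) that did not pass. Its relative Cox7a2 had 45.2 and 47.6 CPM in WT and 49.9 and 49.8 CPM in cKO (log2 fold change 0.10, SE 0.05) and did not pass either. Cox4i1, Cox7b and Cox8a, common isoforms of paralogue families, had log2 fold changes of 0.09, 0.11 and 0.07, none passing.

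**Figure D3:**
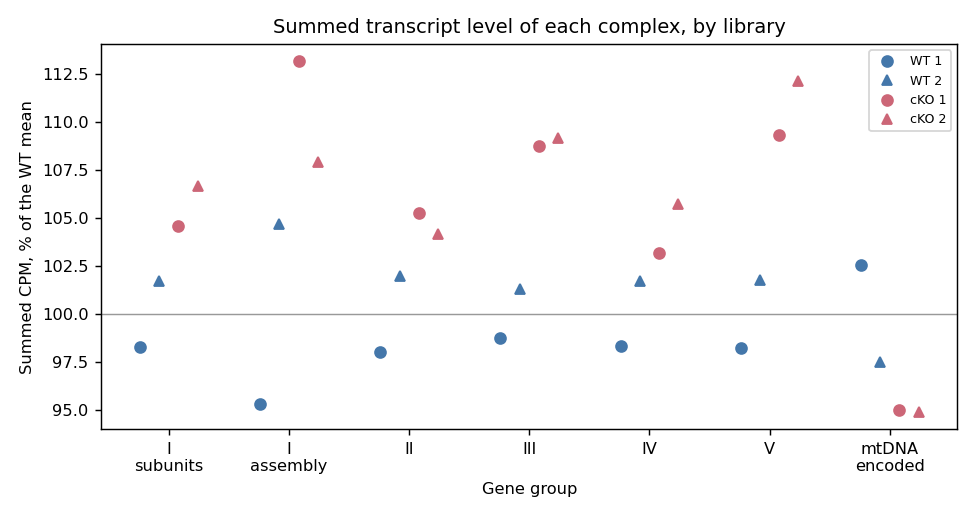
Summed CPM of each complex in each library, as a percentage of the WT mean, for nuclear genes and, at the right, the 13 genes of mitochondrial DNA. In each nuclear group both cKO libraries (red) lie above both WT libraries (blue), and in the mitochondrial group both lie below. WT 1 is the lowest library in all 6 nuclear groups.

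Set side by side, the cKO over WT ratio of summed CPM was 1.11 for complex V and for the assembly factors of complex I, 1.09 for complex III, 1.06 for complex I, 1.05 for complex II and 1.04 for complex IV. The sum of complex V leans on Atp5a1 and Atp5b, which made up a large part of it. That of complex IV holds Cox7a2l, with 266 CPM in WT and a ratio of 0.94. Its 11 common subunits alone had a ratio of 1.07. By median log2 fold change the order was complex III (0.12), complex IV (0.11), complex V (0.10), complex I (0.07) and complex II (0.05). The medians lie within 0.07 of each other, about the size of the SE of 1 gene (median 0.06), and no order among the complexes was tested.

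Levels per length differed far more between genes than between the groups. In WT the median per kb of transcript was 122 CPM for complex V, 76.7 for complex IV, 71.2 for complex III, 53.6 for complex II, 41.1 for complex I and 7.12 for its assembly factors. The highest members were Atp5b in complex V (321 CPM per kb), Cox4i1 in complex IV (270), Uqcrh in complex III (253), Ndufa6 in complex I (89.9), Sdha in complex II (85.3) and Ndufaf8 among the assembly factors (9.82). Atp5g3 and Atp5g2 had 199 and 161 CPM per kb and Atp5g1 13.7, so that most transcripts of subunit c came from the first 2 genes. The length used for Atp5g1 (2675.5 bases) was far above those for Atp5g3 (718.5) and Atp5g2 (586), which widens the gap. Before division by length the WT means were 143 CPM for Atp5g3, 94.6 for Atp5g2 and 36.6 for Atp5g1. Lengths came from GENCODE M21 for 91 of the 96 genes, and a wrong transcript choice would move these values.

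**Figure D4:**
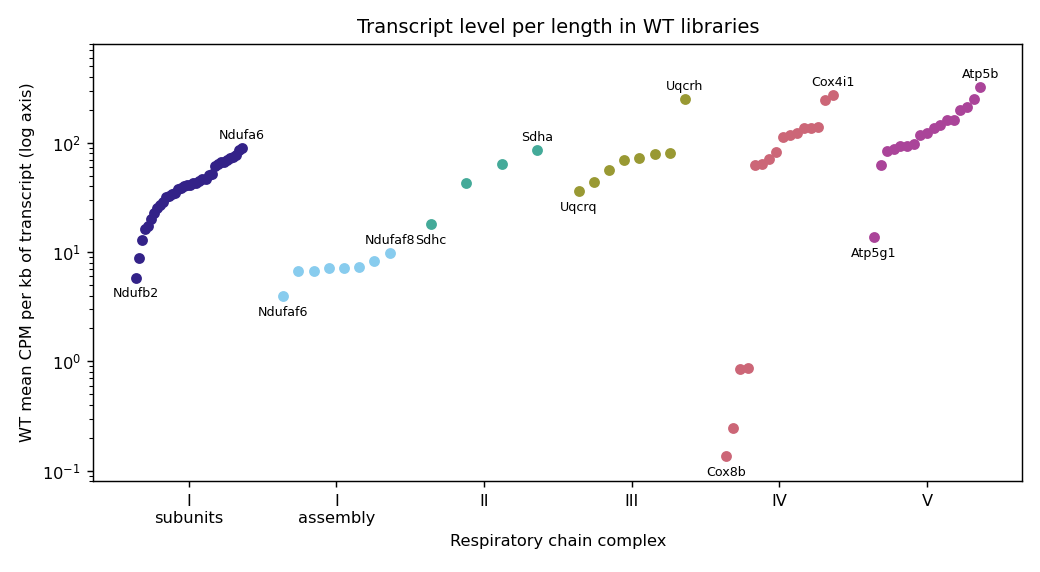
Mean WT level per kb of transcript (log axis) of the members with a known length and at least 1 count in WT, by complex, with the lowest and highest gene of each complex named. Subunit genes lie mostly between 10 and 300 CPM per kb, assembly factors below 10, and the tissue isoforms of complex IV below 1.

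In their sum and their median, the 13 genes of mitochondrial DNA did not share the small excess in cKO. They summed to 26276 and 24977 CPM in WT and 24338 and 24316 CPM in cKO, 0.95 times the WT mean. The ratio of 0.97 over all genes is set by the TMM factors, so it is no background for this value. By edgeR 0 of the 13 passed in either direction, and COX2 and ND5 were those with an unadjusted p under 0.05. DESeq2 called 0 as higher and 1 as lower. COX2 had 63.8 and 66.1 CPM in WT and 73.1 and 72.3 CPM in cKO (log2 fold change 0.16, SE 0.05), and ND5 had 2905 and 2676 CPM in WT and 2569 and 2326 CPM in cKO (log2 fold change -0.19, SE 0.07). The median of the 13 was -0.03. Reads were spread very unevenly over them, with 345067 to 440496 counts per library for COX1, so the sum leans on few genes. The 5 genes above 0 (COX2, COX3, ATP6, ATP8 and ND4L) had at most 2498 counts in any library. ND3 and ND6 also had few counts and were below 0. The part of this unevenness in the differences was not tested. COX1, ND2, ND3 and ND4 lay lower in both cKO libraries, with log2 fold changes of -0.08, -0.07, -0.13 and -0.07, and ATP8, at about 1 CPM, lay higher (0.57, SE 0.23). The groups overlapped in COX3 (0.09), ND4L (0.19), ND6 (-0.13), ND1 (-0.02), CYTB (-0.03) and ATP6 (0.01), the last 3 of which changed sign with the scaling.

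Other genes of the same pathway showed small and mixed differences. Of 38 further assembly factors, 3 rose, 2 fell and 33 did not pass (median 0.05). Tmem70, needed for ATP synthase assembly, rose by 0.37 (SE 0.07), and the complex III factors Uqcc2 and Uqcc3 by 0.39 (SE 0.09) and 0.28 (SE 0.07). Sdhaf1, which serves complex II, fell by 0.33 (SE 0.09) and Cox11, a copper factor of complex IV, by 0.32 (SE 0.09). Both falls missed the threshold with upper-quartile scaling (edgeR adjusted p = 0.0534 and 0.0543). Of 8 subunits and partners that the symbol rule leaves out, the ATP synthase inhibitor Atpif1 rose, from 18.2 and 19.5 CPM in WT to 23.0 and 27.2 CPM in cKO (log2 fold change 0.42, SE 0.10, edgeR adjusted p = 0.0287). Dmac2l (0.27, SE 0.13) and Cycs, cytochrome c (0.10, SE 0.05), did not pass. Without single libraries the calls of these assembly factors and of Atpif1 were lost in at least 2 of the 4 fits.

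Of 17 enzymes of the citric acid cycle and pyruvate dehydrogenase, 3 rose, 0 fell and 14 did not pass (median 0.08). Pdha1, of pyruvate dehydrogenase, had 197 and 195 CPM in WT and 236 and 232 CPM in cKO (log2 fold change 0.25, SE 0.05, edgeR adjusted p = 0.0112). Idh3a rose by 0.21 (SE 0.05) and Fh1 by 0.20 (SE 0.05). Suclg2 just missed the threshold (0.17, SE 0.05, edgeR adjusted p = 0.0519) and passed with upper-quartile scaling (0.0331). All 3 calls ended without any 1 library. Among 19 tested regulators of mitochondrial biogenesis, 1 rose, 2 fell and 16 did not pass (median -0.04). Myc, a growth regulator, rose from 102 and 117 CPM in WT to 179 and 171 CPM in cKO (log2 fold change 0.68, SE 0.08, edgeR adjusted p = 0.00509). Nrip1, a corepressor of oxidative genes, fell by 0.36 (SE 0.05) and Gabpb1, a subunit of GABP, by 0.30 (SE 0.06). Yy1, a factor with sites in respiratory gene promoters, had a log2 fold change of -0.15 (SE 0.05) and did not pass. Nrf1 (log2 fold change -0.06) and Gabpa (-0.07), the factors best known for driving respiratory genes, did not pass.

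Promoter windows (250 bases before to 50 after a start) were found for 77 of the 96 members. The letters GCGCATG, on either strand, stood in those of 15 members (19.5%), against 7.51% of 10990 tested genes with a window and 4.41% of all 27025 genes with one. For CCGGAAG the shares were 24.7% of members, 19.4% of tested genes and 9.93% of all genes. For AAGATGG, a core of YY1 sites, they were 15.6%, 8.35% and 7.28%, and for CCAAT 42.9%, 42.9% and 41.1%. Matches did not go with larger differences. The median log2 fold change was 0.06 in the 15 tested members with GCGCATG and 0.09 in the 60 without, and 2 of the former and 12 of the latter rose. With CCGGAAG 2 of 19 rose and without it 12 of 56, and with CCAAT 4 of 32 and without it 10 of 43. A match describes letters in a window and is not evidence of binding.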

How the data were processed

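Bulk RNA of 4 Treg libraries, 2 per genotype, was analysed from 1 table of raw read counts per gene that the authors deposited. The genome build was mm10, per the submitters' processing notes, while for aligner, counting tool, use of strand, annotation release and library kit the record is: not given in the sources used here. Genes with low counts were removed (filterByExpr of edgeR 4.0.16 in R 4.3.3, minimum count 10, minimum total 15). Libraries were scaled by TMM, and genotypes compared by edgeR's quasi-likelihood F-test with genotype as the only term and Benjamini-Hochberg adjustment over 13861 genes (threshold 0.05). With 2 libraries in either group the spread of a gene is estimated largely from all genes together. The SE of a log2 fold change was derived from its F statistic. The code was tested on simulated data.

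The members, their roles and the other gene lists were chosen with earlier results of these data known. Genes named are all called members, the 3 with the smallest p and the highest per length of each complex, paralogue sets, members under the filter, up to 4 of smallest p in the other pathway lists, and the mitochondrially encoded genes. Any other was chosen after its values were seen.

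RefSeq gave coordinates and promoters (GRCm38.p6, the assembly of mm10) and GENCODE M21 transcript lengths and overlaps. Alternatives were DESeq2 1.42.0, limma-voom (limma 3.58.1), scaling by RLE or upper quartile, no filter, omission of each library in turn, a block for the replicate number, a threshold of 0.10, and other placings of Ndufa4 and of the assembly factors among the complexes.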

Additional observations from a re-analysis of the deposited data

How the results depend on the processing

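The members' count of 15 higher and 0 lower was within 1.5 times of this with RLE or upper-quartile scaling, limma-voom and no filter on low counts, and no called member and no called gene of the other pathway lists changed direction under any alternative run. With DESeq2 4 members rose, with 0 in complexes I, II and IV and among the complex I assembly factors, 1 among citric acid cycle genes, 0 among subunits and assembly factors outside the symbol rule, and 1 lower among those assembly factors and among mitochondrially encoded genes. At a threshold of 0.10, 26 of 92 members rose, against 21.6% of all genes tested. They included 4 in complex III, 5 in complex IV and 7 in complex V. In the other lists 7 citric acid cycle genes, 5 assembly factors outside the rule and 1 mitochondrially encoded gene rose, and 4 regulators fell. Upper-quartile scaling gave 3 higher in complex III, 5 citric acid cycle genes, 1 mitochondrially encoded gene and 0 lower assembly factors. Without the filter 1 mitochondrially encoded gene fell. The cause of these shifts was not tested.

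Leaving out 1 library gave 0 to 6 higher members, 0 to 1 in complexes I, III and IV, 0 in complex II and among complex I assembly factors, 0 to 3 in complex V, 0 to 1 subunits outside the rule, 0 to 2 assembly factors outside it (0 to 1 lower), 0 citric acid cycle genes and 1 to 2 lower regulators. Each such fit leaves 1 library in a group, which is then assumed to vary like the other group. Fewer of all genes tested were called in each of these fits too.

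The labels give both groups replicates 1 and 2 with no statement that a number marks a shared mouse or day. Deviations of WT 1 and cKO 1 from their group means had a correlation of -0.32. With the replicate number as a block, 0 members rose, against 8.30% of all genes tested. There were 0 in each complex and in the other pathway lists save regulators (1 higher, 1 lower). With the pairing crossed, an alternative chosen after seeing the data, 34 members rose (12 in complex I, 4 in III, 7 in IV, 7 in V). Among all genes tested 25.4% rose in that fit. It also called 2 mitochondrially encoded genes higher and 2 lower, 2 subunits and 8 assembly factors outside the rule, 7 citric acid cycle genes and 2 regulators higher and 5 lower. Genes near 1 CPM (Ndufb4c, Cox6b2, Cox6a2) are limited by counts of 12 to 36.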

Other observations

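The mitochondrially encoded genes were counted very unevenly. COX1 had 345067 to 440496 counts per library and COX2 had 2013 to 2498, although both encode core subunits of complex IV. The same unevenness was present in all 4 libraries.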
